A study of Mus musculus with 4 samples.

Results

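The genes described here are 10 of the 32285 genes measured: the chemokine genes Ccl3 and Ccl4, the feedback regulators Nfkbia, Nfkbiz, Tnfaip3 and Ier3, the NF-κB subunit genes Nfkb1, Nfkb2 and Relb, and the ligand gene Ltb. They were chosen by name, with the KO to WT differences of these same libraries already known, so those differences are given as descriptions and support nothing by themselves. The cells were LSK cells (lineage negative, Sca1 positive, c-Kit positive), the fraction that holds blood stem cells and early progenitors, sorted from the livers of mouse fetuses at E17.5. KO cells came from Vav-Cre:Bclaf1f/f fetuses and WT cells from Bclaf1f/f fetuses, so both carried the floxed Bclaf1 alleles and KO cells also carried Cre under the blood-cell promoter Vav. Loss of Bclaf1 and presence of Cre therefore cannot be told apart. Each genotype was 1 library from 10 pooled fetuses, enriched for c-Kit with beads, read by CITE-seq, which counts polyadenylated RNA and barcoded antibodies on single cells. With 1 library per genotype there is no replicate and no test. Levels are UMIs (distinct RNA molecules) per 1000000 gene UMIs, written CPM, and every interval is a 95% interval that covers counting error only.

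NF-κB is a family of dimeric transcription factors that IκB proteins hold in the cytoplasm. Signals such as TNF lead to phosphorylation and loss of IκBα, the product of Nfkbia, after which the dimers enter the nucleus and switch on inflammatory genes, chemokines among them, and also their own inhibitors. Nfkbia and Tnfaip3 (A20, a ubiquitin-editing enzyme) close this negative loop, while Nfkbiz encodes a nuclear IκB protein that modulates a subset of targets. Nfkb2 and Relb form the slower non-canonical branch, which the lymphotoxin made of Ltb and Lta can trigger through the lymphotoxin-β receptor. In blood stem and progenitor cells these genes belong to the inflammatory and stress responses.

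RefSeq promoter windows were available for 6 of the 10 genes, and the 250 bases before the first listed start of each were searched on both strands for the kappaB consensus, the 10-letter site that NF-κB dimers bind, and for the shorter pattern GGNNNTTCC, which overlaps it. The kappaB consensus was present in the first window of 5 of these 6 genes (Nfkbia, Tnfaip3, Ier3, Nfkb2 and Ltb), against 3.75% of the first windows of 27025 genes. The shorter pattern was present in the same 5 genes, against 15.6% of all genes. The Ccl3 window held neither, which says only that these letters are not in that window. The 5 windows with a match are printed 5′ to 3′ on the strand of the gene, because they show where the sequence read by NF-κB lies in the feedback genes and in Ltb, and capitals mark every match to either pattern. They are from RefSeq on build GRCm38.p6, at chr12:55492648-55492897 on the minus strand for Nfkbia, chr10:19015411-19015660 on the minus strand for Tnfaip3, chr17:35821463-35821712 on the plus strand for Ier3, chr19:46304487-46304736 on the plus strand for Nfkb2 and chr17:35194257-35194506 on the plus strand for Ltb.
Nfkbia: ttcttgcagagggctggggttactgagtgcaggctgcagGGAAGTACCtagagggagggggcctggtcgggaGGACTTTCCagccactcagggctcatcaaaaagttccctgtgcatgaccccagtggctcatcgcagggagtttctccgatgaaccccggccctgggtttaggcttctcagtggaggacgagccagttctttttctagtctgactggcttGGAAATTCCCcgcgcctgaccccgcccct
Tnfaip3: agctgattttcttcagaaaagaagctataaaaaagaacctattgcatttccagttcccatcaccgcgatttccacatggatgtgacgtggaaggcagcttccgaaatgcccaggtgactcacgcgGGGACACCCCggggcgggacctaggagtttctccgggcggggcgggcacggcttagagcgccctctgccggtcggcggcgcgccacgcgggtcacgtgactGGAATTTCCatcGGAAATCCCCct
Ier3: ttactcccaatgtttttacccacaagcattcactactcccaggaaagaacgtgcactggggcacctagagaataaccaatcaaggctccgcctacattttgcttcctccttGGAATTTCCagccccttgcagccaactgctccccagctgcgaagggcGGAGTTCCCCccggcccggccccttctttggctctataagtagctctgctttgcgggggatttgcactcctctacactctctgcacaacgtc
Nfkb2: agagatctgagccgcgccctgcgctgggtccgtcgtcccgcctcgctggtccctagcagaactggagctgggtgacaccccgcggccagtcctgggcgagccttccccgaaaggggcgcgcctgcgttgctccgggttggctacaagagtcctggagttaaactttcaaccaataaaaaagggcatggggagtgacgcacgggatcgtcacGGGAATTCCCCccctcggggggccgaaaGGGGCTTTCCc
Ltb: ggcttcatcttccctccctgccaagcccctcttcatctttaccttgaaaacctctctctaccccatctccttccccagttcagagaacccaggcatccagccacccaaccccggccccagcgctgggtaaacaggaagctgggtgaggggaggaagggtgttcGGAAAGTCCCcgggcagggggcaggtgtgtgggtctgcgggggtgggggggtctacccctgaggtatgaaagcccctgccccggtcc
In Nfkb2 overlapping kappaB matches began 39 and 38 bases before the start, and a separate match began 11 bases before it. In Tnfaip3 a kappaB consensus began 125 bases before the start and another 12 bases before it. The single kappaB consensus began 29 bases before the start in Nfkbia, 92 in Ier3 and 87 in Ltb. These matches describe the letters and not binding, which was not measured. The genes that share the site did not move together, since Ltb was lower in KO cells and the other 4 were higher.

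The KO library gave 2676 cells with a median of 34187.5 gene UMIs and the WT library 5345 cells with a median of 22734, from 104358292 and 141419013 gene UMIs in all. KO cells were deeper, so shares of cells are given after each cell was thinned to 8000 gene UMIs. The libraries shared 5 cell barcodes. Bclaf1 itself was at 75.8 CPM in KO cells and 218 CPM in WT cells, and the part of the gene that is floxed is not given in the sources used here. The gate markers Kit, Ly6a, Cd34 and Ptprc summed to 491 CPM in KO cells and 497 CPM in WT cells. Erythroid marker cells made up 13.3% of KO cells and 5.24% of WT cells, which touches genes whose level differs between lineages.

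Over all LSK cells, 7 of the 10 genes were at least 25% higher in KO cells, 1 was at least 20% lower, and 2 lay between. Among the 9229 genes with at least 5 CPM on average, 7.47% were at least 25% higher and 2.57% at least 20% lower. Since the 10 genes were picked with this contrast in view, nothing is read from the gap between these shares. On that minimum 8 of the 10 count as measured, and Tnfaip3 and Relb, both among the 7, do not. The count of 7 went to 5 with cells thinned to 8000 UMIs and to 8 without the top 1% of cells for each gene. The median log2 ratio of KO to WT was 0.53 for the 10 genes and 0.07 for all measured genes. Thus the chemokines and feedback regulators were higher in KO cells, the subunit Nfkb1 was nearly equal, and Ltb went the other way.

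**Figure D1:**
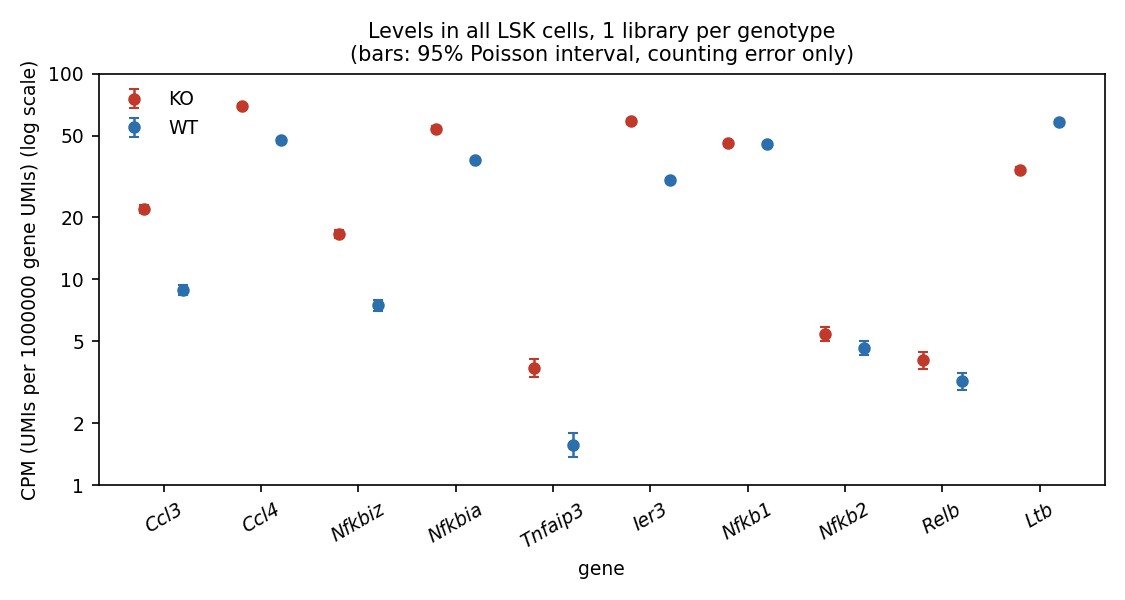
Levels of the 10 genes in all LSK cells, in CPM on a log axis, with KO (red) left of WT (blue) and 95% Poisson intervals that cover counting error only. KO stands above WT for 9 genes, by almost nothing for Nfkb1, and far below WT for Ltb; heights are to be compared within a gene.

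Ccl3 encodes the chemokine MIP-1α, which draws and activates myeloid and lymphoid cells and can hold back cycling of blood progenitors. It was at 22.0 CPM (21.1 to 22.9) in KO cells and 8.87 CPM (8.38 to 9.37) in WT cells, a log2 ratio of 1.31 (1.21 to 1.41). The thinned cells with a Ccl3 UMI were 9.27% (8.20 to 10.4) in KO and 4.92% (4.36 to 5.53) in WT, and unthinned they were 18.2% and 9.80%. KO was thus higher both in level and in the share of cells. In the erythroid gate, a lineage not known for making Ccl3, the thinned shares were 1.68% and 1.07%, at median depths of 68732 UMIs in KO and 52913.5 UMIs in WT, far below the shares over all cells. The signal was concentrated: the 27 KO cells with most Ccl3, 1% of cells, held 38.5% of its UMIs, and the 53 such WT cells held 39.1%. The highest single cell had 132 UMIs in KO and 32 in WT. Leaving out the top 1% of cells kept the direction, and subtracting free RNA at its upper bound lowered the log2 ratio to 0.78.

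Ccl4 encodes MIP-1β, the close relative of Ccl3. The 2 genes lie side by side on chromosome 11 of GRCm38.p6, Ccl3 at 83647843 to 83649378 and Ccl4 at 83648624 to 83664683. These RefSeq spans share 755 bases, and how reads there were assigned was not examined. The level of Ccl4 was 69.7 CPM (68.1 to 71.3) in KO cells and 47.4 CPM (46.2 to 48.5) in WT cells, a log2 ratio of 0.56 (0.51 to 0.61). The thinned share of cells with a Ccl4 UMI was 28.5% (26.8 to 30.3) in KO and 24.4% (23.2 to 25.6) in WT. The gap widened in cells rich in the transcript, with 4.37% of KO cells and 1.57% of WT cells at 5 or more thinned UMIs. The KO excess of Ccl4 was thus larger among cells with 5 or more thinned UMIs than among cells with any. At the very top WT was not below KO. The 1% of cells with most Ccl4 held 18.9% of its UMIs in KO and 21.5% in WT, and the highest single cell had 88 UMIs in KO and 142 in WT. Without the top 1% of cells the Ccl4 log2 ratio was 0.60. The free-RNA subtraction brought its log2 ratio to 0.22.

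Cells that held Ccl3 also held more Ccl4. In KO, the 248 cells with a thinned Ccl3 UMI had Ccl4 at 320 CPM and the 2428 cells without had 73.8 CPM. In WT, the 263 cells with Ccl3 had Ccl4 at 246 CPM and the 5082 cells without had 55.5 CPM. The log2 difference in Ccl4 between cells with and without Ccl3 was 2.12 (1.98 to 2.25) in KO and 2.15 (2.01 to 2.29) in WT, so the values of the libraries lay within each other's intervals. Nfkbiz was also higher in the cells with Ccl3, by a log2 difference of 1.02 (0.64 to 1.37) in KO and 0.84 (0.28 to 1.35) in WT. For Nfkb1 and Ltb the intervals of this difference held 0 in both libraries. Fos, a subunit of the immediate early factor AP-1, was 0.99 higher on the log2 scale (0.86 to 1.12) in KO cells with Ccl3 and 0.89 higher (0.64 to 1.13) in WT cells with Ccl3. Of the cells with Ccl3, 36.3% in KO and 49.0% in WT were in no lineage gate, the largest group in both. Another 31.5% in KO and 33.5% in WT were in the lymphoid gate, and 19.8% in KO and 8.75% in WT in the granulocyte-monocyte gate. Within the lymphoid gate the Ccl4 difference was smaller, at 1.21 (0.97 to 1.46) in KO and 0.69 (0.43 to 0.95) in WT, and there the intervals of the libraries did not overlap. In cells of no lineage gate the order was reversed, at 1.78 (1.57 to 2.00) in KO and 2.37 (2.19 to 2.56) in WT, again without overlap. In the granulocyte-monocyte gate the Ccl4 intervals overlapped, at 1.84 (1.31 to 2.36) in KO and 0.99 (-0.53 to 2.22) in WT. The Nfkbiz intervals held 0 in both libraries within the lymphoid and granulocyte-monocyte gates, but were above 0 in cells of no lineage gate. In those cells the Fos difference was 0.61 (0.37 to 0.84) in KO and 1.07 (0.72 to 1.40) in WT. Within the lymphoid gate it was 0.45 (0.17 to 0.73) in KO and 0.09 (-0.495 to 0.645) in WT. Within the granulocyte-monocyte gate it was 1.46 (1.16 to 1.75) in KO and -0.06 (-1.145 to 0.858) in WT. Whether the libraries differ in any of these was not tested. Across single cells the correlation of log levels was 0.31 in 2676 KO cells and 0.21 in 5345 WT cells for Ccl3 with Ccl4, as a description of cells that share a library and a depth.

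**Figure D2:**
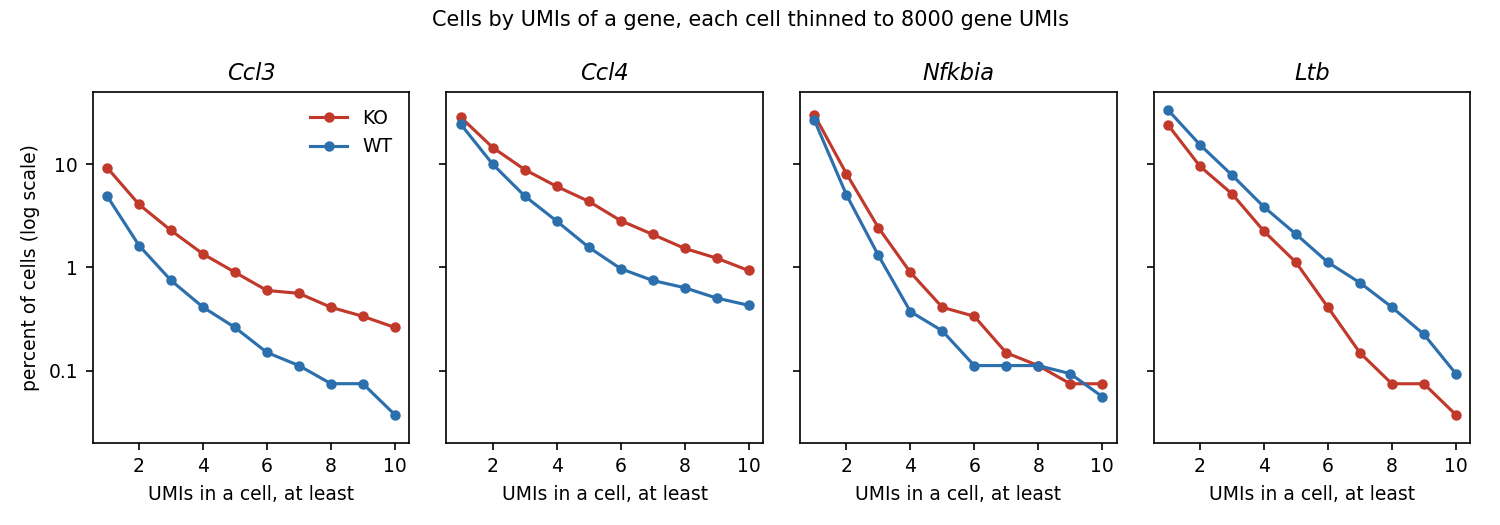
Percent of cells (log axis) with at least 1 to 10 UMIs of Ccl3, Ccl4, Nfkbia or Ltb, after thinning each cell to 8000 gene UMIs, for KO (red) and WT (blue). For Ccl4 the curves start at 28.5% and 24.4% and part to 4.37% and 1.57% at 5 UMIs, while for Ltb the KO curve runs below the WT curve.

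Among the feedback regulators, Nfkbiz and Ier3 were higher in KO in every gate examined. Nfkbiz was at 16.6 CPM (15.9 to 17.45) in KO cells and 7.49 CPM (7.04 to 7.95) in WT cells, a log2 ratio of 1.15 (1.04 to 1.26). Of the thinned cells, 14.3% (13.0 to 15.7) in KO and 6.53% (5.88 to 7.23) in WT had a UMI. Unlike the chemokines, Nfkbiz was spread thinly, and no thinned cell of either library reached 5 UMIs. Its log2 ratio was above 0, interval included, in 4 of 4 surface gates and 7 of 7 lineage gates, from 0.72 in the erythroid gate to 3.30 in the basophil-eosinophil gate, where WT had only 3 UMIs. Ier3 was above 0, interval included, in the same gates. Tnfaip3 and Nfkbia were above 0 in them too, but not with every interval.

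Nfkbia, the IκBα gene, was at 54.0 CPM (52.6 to 55.5) in KO cells and 38.0 CPM (37.0 to 39.0) in WT cells, a log2 ratio of 0.51 (0.45 to 0.56). Lineages differed in this excess. In the erythroid gate its level was 64.7 CPM (61.6 to 68.0) in KO and 23.8 CPM (21.4 to 26.4) in WT, a log2 ratio of 1.44 (1.28 to 1.61), and 132 of 357 thinned KO cells and 49 of 280 thinned WT cells had a UMI. In the CD150+CD48- gate, the cells that hold most stem cells, it was equal within counting error at 59.0 CPM (52.9 to 65.6) in KO and 58.3 CPM (53.3 to 63.8) in WT. The megakaryocyte gate was as flat, at a log2 ratio of 0.05 (-0.14 to 0.24). Thinning all cells to equal depth lowered the ratio over all cells to 0.31.

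Tnfaip3 was scarce, with 388 UMIs in KO cells and 223 in WT cells, or 3.72 CPM (3.36 to 4.11) in KO and 1.58 CPM (1.38 to 1.80) in WT. The log2 ratio was 1.24 (1.00 to 1.48), and it was above 0 in all 4 surface gates and all 7 lineage gates, with intervals clear of 0 in 3 and 6 of them. The dendritic gate, with 6 UMIs in KO and 3 in WT, was at 1.53 (-0.69 to 4.16), which turned to -0.23 with smaller gates. The mast gate was its highest place in both genotypes, at 42.1 CPM (33.0 to 53.0) in 69 KO cells and 14.9 CPM (9.32 to 22.5) in 77 WT cells. The erythroid gate held 45 UMIs in KO and 4 in WT.

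Ier3 encodes a short-lived early-response protein that NF-κB induces and that modulates survival signals. It was at 58.6 CPM (57.1 to 60.1) in KO cells and 30.3 CPM (29.4 to 31.2) in WT cells, a log2 ratio of 0.95 (0.90 to 1.01). The thinned share of cells with a UMI was 34.8% (32.9 to 36.6) in KO and 21.2% (20.1 to 22.3) in WT. The ratio was larger in CD150-CD48+ progenitors, at 1.24 (1.18 to 1.31), than in CD150+CD48- cells, at 0.34 (0.12 to 0.57), and the 2 intervals did not overlap. With CD150 and CD48 cut at fixed shares of cells the values came to 1.19 in CD150-CD48+ cells and 0.72 in CD150+CD48- cells, a narrower gap. Granulocyte-monocyte cells had 87.9 CPM (82.7 to 93.3) in KO and 28.9 CPM (26.0 to 31.9) in WT.

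The subunit genes stood apart from these regulators. Nfkb1, which encodes the p105 precursor of p50, was at 45.8 CPM (44.6 to 47.2) in KO cells and 45.6 CPM (44.5 to 46.7) in WT cells, a log2 ratio of 0.01 (-0.05 to 0.06). None of the 7 lineage gates had an Nfkb1 interval clear of 0. Cells of no lineage gate were at 0.12 (0.05 to 0.19), and the cells past the cut of more than 1 common lineage at -0.56 (-1.01 to -0.12). Nfkb2, which encodes p100, was at 5.43 CPM (5.00 to 5.90) in KO and 4.64 CPM (4.29 to 5.01) in WT, a log2 ratio of 0.23 (0.06 to 0.39). Relb was at 4.04 CPM (3.67 to 4.45) in KO and 3.20 CPM (2.92 to 3.51) in WT, a log2 ratio of 0.34 (0.14 to 0.53). The non-canonical pair was thus slightly higher in KO cells, most clearly in the erythroid gate, where the log2 ratio was 0.61 (0.12 to 1.12) for Nfkb2 and 1.38 (0.73 to 2.07) for Relb. In CD150+CD48- cells both intervals held 0.

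Ltb, the gene of lymphotoxin-β, was lower in KO cells. It was at 34.2 CPM (33.0 to 35.3) in KO and 58.3 CPM (57.0 to 59.5) in WT, a log2 ratio of -0.77 (-0.83 to -0.71). The thinned share of cells with a UMI was 24.0% (22.4 to 25.7) in KO and 33.5% (32.3 to 34.8) in WT. In both genotypes Ltb was highest in CD150+CD48- cells, and within them in the cells high for CD201, a stem cell surface protein. These CD201-high cells had 159 CPM (144 to 174) in KO and 262 CPM (246 to 278) in WT, and the CD201-low cells had 65.3 CPM (56.3 to 75.2) in KO and 134 CPM (123 to 145) in WT. The KO level was below the WT level in 4 of 4 surface gates with intervals clear of 0, down to a log2 ratio of -1.24 (-1.42 to -1.07) in CD150+CD48+ cells. It was also below in 7 of 7 lineage gates, clear of 0 in 6, the dendritic gate being the other at -0.10 (-0.86 to 0.63), which turned to 0.77 with smaller gates. The 42 KO and 59 WT cells past the cut of more than 1 common lineage were the exception, at 0.70 (0.17 to 1.251). Stem cell marker genes summed to 314 CPM in KO cells and 371 CPM in WT cells. Within surface gates they summed to 1007 CPM in KO and 1317 CPM in WT in CD150+CD48- cells and 409 CPM in KO and 622 CPM in WT in CD150-CD48- cells. Their sum was lower in KO in the other 2 surface gates too. In cells of no lineage gate it was higher in KO, at 487 CPM, than in WT, at 447.5 CPM. The Ltb log2 ratio in those cells was -0.40 (-0.47 to -0.33). The marker sum was also higher in KO in the dendritic gate and in cells past more than 1 common lineage cut, and lower in the other lineage gates. The part of these markers in the Ltb difference, over all cells and within gates, was not tested. Weighting KO cells to the WT lineage shares brought the log2 ratio to -0.48.

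The surface gates, cut from CD150 and CD48 antibody tags, order the cells from stem cells (CD150+CD48-, 200 KO and 476 WT cells) through multipotent progenitors to the large CD150-CD48+ fraction (1563 KO and 3431 WT cells). In CD150+CD48- cells 3 of the 10 genes were at least 25% higher in KO and 1 at least 20% lower, while 16.6% of all measured genes there were that much higher and 14.5% that much lower. In CD150-CD48+ cells 6 of 10 were higher, with 7.98% of all measured genes. Tnfaip3, counted as higher in both of these gates, averaged under 5 CPM in each and is outside these background shares. The median log2 ratio of the 10 genes was -0.06 in CD150+CD48- cells and 0.69 in CD150-CD48+ cells. With CD150 and CD48 cut at fixed shares of cells instead, these medians were 0.11 in CD150+CD48- cells and 0.67 in CD150-CD48+ cells. The level of Ccl3 was close to its floor in CD150+CD48- cells, at 1.73 CPM (0.83 to 3.17) in KO and 1.44 CPM (0.75 to 2.52) in WT, and reached 34.3 CPM (32.8 to 35.8) in KO and 12.2 CPM (11.5 to 12.9) in WT in CD150-CD48+ cells. Ccl4 changed sides: CD150+CD48- cells had 52.6 CPM (46.9 to 58.9) in KO and 63.5 CPM (58.2 to 69.2) in WT, and CD150-CD48+ cells had 93.3 CPM (90.9 to 95.8) in KO and 53.5 CPM (52.0 to 55.0) in WT. With the fixed shares, the CD150+CD48- ratio of Ccl4 turned to 0.16, so its direction in stem cells depends on the cut. The tag cuts lay at 78 CD150 UMIs in KO and 45 in WT, and 6.84% of KO cells and 5.33% of WT cells were within 25% of them. Haemoglobin transcripts had medians of 12.2 in KO and 17.1 in WT per 10000 UMIs in CD150+CD48- cells, and of 0.41 in KO and 0.52 in WT in CD150-CD48+ cells. In CD150+CD48- cells erythroid markers summed to 989 CPM in KO and 557 CPM in WT, and neutrophil markers to 489 CPM in KO, 98.7% of it from 1 cell, and 4.33 CPM in WT. The part of these markers in the levels of the 10 genes was not tested.

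**Figure D3:**
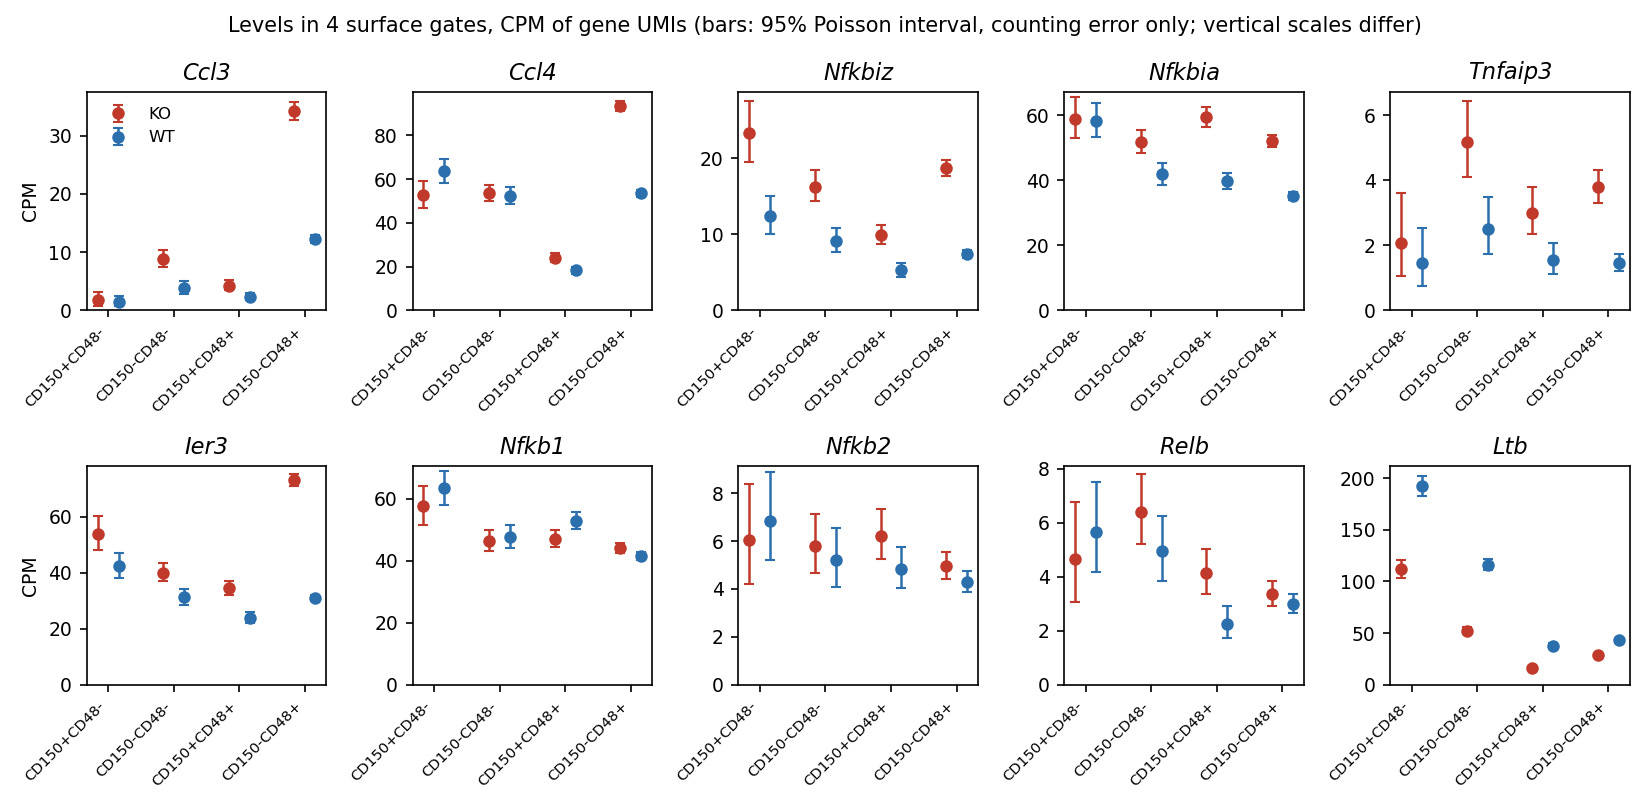
Levels of the 10 genes in 4 surface gates, in CPM with a separate vertical scale per gene, KO (red) left of WT (blue), with 95% Poisson intervals. Ltb falls from CD150+CD48- to CD48+ cells in both genotypes with KO below WT throughout, and Ccl3 is near 0 in CD150+CD48- cells and highest in CD150-CD48+ cells.

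Cell cycle was also measured, since cycle genes summed to 1806 CPM in KO cells and 1502 CPM in WT cells. In each library the third of cells lowest for cycle genes had more of both chemokines and of Ltb than the third highest. Among cells low for cycle genes, Ccl3 was at 41.4 CPM (38.7 to 44.3) in KO and 18.9 CPM (17.4 to 20.6) in WT, Ccl4 at 169 CPM (163 to 175) in KO and 118 CPM (114 to 122) in WT, and Ltb at 94.2 CPM (90.1 to 98.5) in KO and 139 CPM (135 to 143) in WT. Among cells high for cycle genes, Ccl3 was at 17.2 CPM (16.0 to 18.5) in KO and 4.73 CPM (4.21 to 5.28) in WT, Ccl4 at 42.5 CPM (40.6 to 44.4) in KO and 24.1 CPM (22.9 to 25.3) in WT, and Ltb at 17.8 CPM (16.6 to 19.1) in KO and 30.0 CPM (28.7 to 31.4) in WT. For these 3 genes the KO to WT direction was the same at both ends of the cycle score.

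Lineage gates were the top cells for marker genes that include none of the 10. A gate is a range of a score and not a cell type. In each whole library, 102 KO cells and 219 WT cells scored within 10% of the granulocyte-monocyte cut, on either side of it. The gate itself held 254 KO cells and 381 WT cells. Its cells had medians of 26.8 granulocyte-monocyte and 1.45 lymphoid marker UMIs per 10000 in KO, and of 21.5 and 1.75 in WT. That gate had a broad KO excess, with 8 of 10 genes at least 25% higher, against 13.3% of all genes measured there. Tnfaip3, Nfkb2 and Relb, which are among the 8, averaged under 5 CPM there, so the 13.3% does not cover genes that scarce. Ccl3 in the granulocyte-monocyte gate was at 50.1 CPM (46.2 to 54.2) in KO and 12.8 CPM (10.9 to 14.8) in WT, a log2 ratio of 1.97 (1.72 to 2.23), with 21.9% of the KO UMIs in 1 cell. Ccl4 there was at 49.4 CPM (45.5 to 53.5) in KO and 15.5 CPM (13.4 to 17.8) in WT. In the erythroid gate 6 of 10 were higher, against 10.2% of all genes measured there, and they were Nfkbia, Tnfaip3, Nfkbiz, Ier3, Nfkb2 and Relb (the chemokines were not among them). With erythroid gates of the smaller size the Ccl3 ratio went to 1.90, so its place outside that count depends on where the gate is drawn. Ccl4 was lower in KO in the erythroid gate, at a log2 ratio of -0.52 (-0.885 to -0.155), and at -0.30 with the smaller gates. Of the 6 counted, Nfkbiz, Tnfaip3, Nfkb2 and Relb averaged under 5 CPM in the erythroid gate, so the 10.2% does not cover genes that scarce.

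The lymphoid gate had the highest chemokine levels among the larger gates. Ccl3 was at 94.4 CPM (87.8 to 101) in its 257 KO cells and 36.2 CPM (32.6 to 40.1) in its 458 WT cells. Ccl4 was at 245 CPM (234 to 256) in KO and 137 CPM (130 to 144) in WT. The mast gate, of cells with the granule genes Cma1 and Cpa3, had the highest Nfkbia level of the KO gates, 198 CPM (178 to 221), with 76.4 CPM (63.0 to 91.9) in WT. It also had the highest Ier3 level of both genotypes, at 184 CPM (164 to 206) in KO and 99.4 CPM (84.0 to 117) in WT. With mast gates of the smaller size the Nfkbia ratio went to -3.1e-04, so this KO excess depends on where the gate is drawn. The rare gates rest on few cells: in the mast gate 73.9% of the 23 KO Ccl4 UMIs came from 1 cell, Ccl3 had 16 UMIs in KO and 1 in WT, with a log2 ratio of 3.79 (1.10 to 9.18), and the basophil-eosinophil gate had 3 Ccl4 UMIs in KO and 12 in WT.

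**Figure D4:**
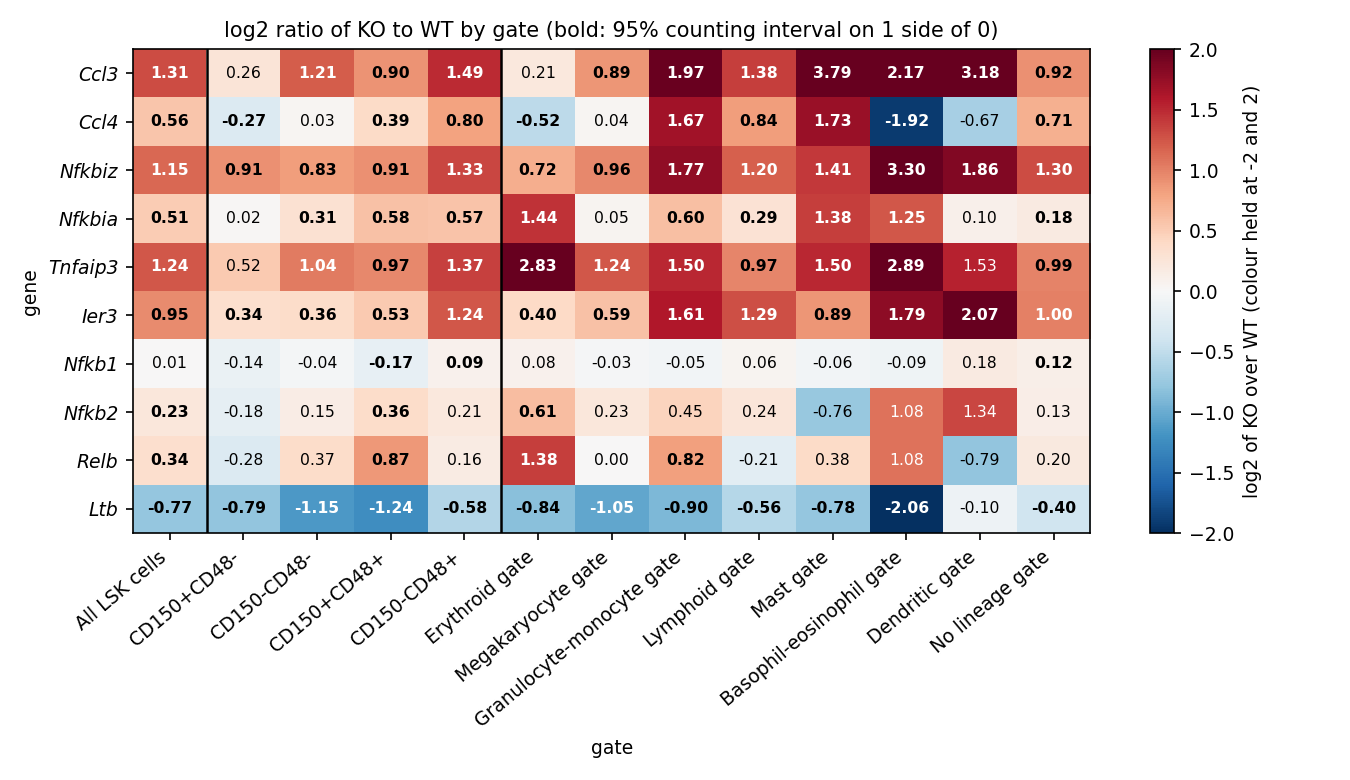
The log2 ratio of KO to WT for each gene (rows) in all LSK cells, 4 surface gates, 7 lineage gates and the cells in no lineage gate (columns), with red for higher in KO, blue for lower, and bold where the 95% counting interval lies on 1 side of 0. The Nfkbiz, Tnfaip3 and Ier3 rows are red throughout, the Nfkb1 row is pale, and the Ltb row is blue.

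Among the measured genes of the wider NF-κB signalling lists, Ltb was the only one at least 20% lower in KO cells. Below the 5 CPM minimum, and named after their values were seen, some scarcer genes did differ. Map3k14, the kinase NIK of the non-canonical branch, had 393 UMIs in KO and 750 in WT, a log2 ratio of -0.49 (-0.67 to -0.32). The receptor gene Tlr4 was at -0.46 (-0.75 to -0.18) with 158 UMIs in KO and 295 in WT, and Il18r1 at 1.35 (0.85 to 1.87) with 98 UMIs in KO and 52 in WT. Of the Rel subunits, 4 of 5 were measured and 0 were at least 25% higher, with a median log2 ratio of 0.02, and Rela and Rel were at 0.02 (-0.06 to 0.10) and -0.03 (-0.10 to 0.04). Of the IκB family, 4 of 6 were measured and 3 were higher, namely Nfkbiz, Nfkbia and Nfkbid, the last at 5.87 CPM in KO and 4.42 CPM in WT. The kinases that release NF-κB had 7 of 10 measured and 0 higher, and the measured ones ran from Map3k7 (TAK1) at 0.14 (0.06 to 0.23) to Chuk (IKKα) at -0.17 (-0.28 to -0.05). The ubiquitin and TRAF regulators had 11 of 13 measured and 1 higher, the ubiquitin ligase gene Birc2 at 0.34 (0.27 to 0.40), followed by Tax1bp1, a partner of A20, at 0.25 (0.21 to 0.28). The receptors and adaptors had 6 of 14 measured and a median of -0.12, with the TNF receptors Tnfrsf1b at -0.27 (-0.38 to -0.16) and Tnfrsf1a at -0.23 (-0.31 to -0.15) lowest and the kinase Ripk1 highest at 0.18 (0.11 to 0.24). Medians are to be read beside the 0.07 of all measured genes.

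Of the other TNF and NF-κB targets, 13 of 22 were measured, 4 were at least 25% higher, 0 were at least 20% lower, and their median was 0.11. Zfp36, which encodes an RNA-binding protein that speeds decay of cytokine transcripts, was at 64.8 CPM in KO and 26.0 CPM in WT, a log2 ratio of 1.32 (1.26 to 1.38). Phlda1 was at 7.04 CPM in KO and 3.35 CPM in WT, a log2 ratio of 1.07 (0.91 to 1.24), while Tnfaip8 was at -0.13 (-0.16 to -0.09). Among the chemokines and their receptors 5 of 14 were measured, and Ccl3 and Ccl4 were the 2 that were higher. Below the 5 CPM minimum, and named after their values were seen, Cxcl2 had 347 UMIs in 90 KO cells and 50 UMIs in 30 WT cells, a log2 ratio of 3.23 (2.80 to 3.69), with 12.4% of the KO UMIs in 1 cell. Atf3 had 399 UMIs in 189 KO cells and 67 UMIs in 58 WT cells, a log2 ratio of 3.01 (2.64 to 3.41). Ccl5 ran the other way with 50 UMIs in KO and 445 in WT, but 58.0% and 31.5% of them came from single cells. Tnf itself had 229 UMIs in KO and 204 in WT, a log2 ratio of 0.61 (0.33 to 0.89).

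**Figure D5:**
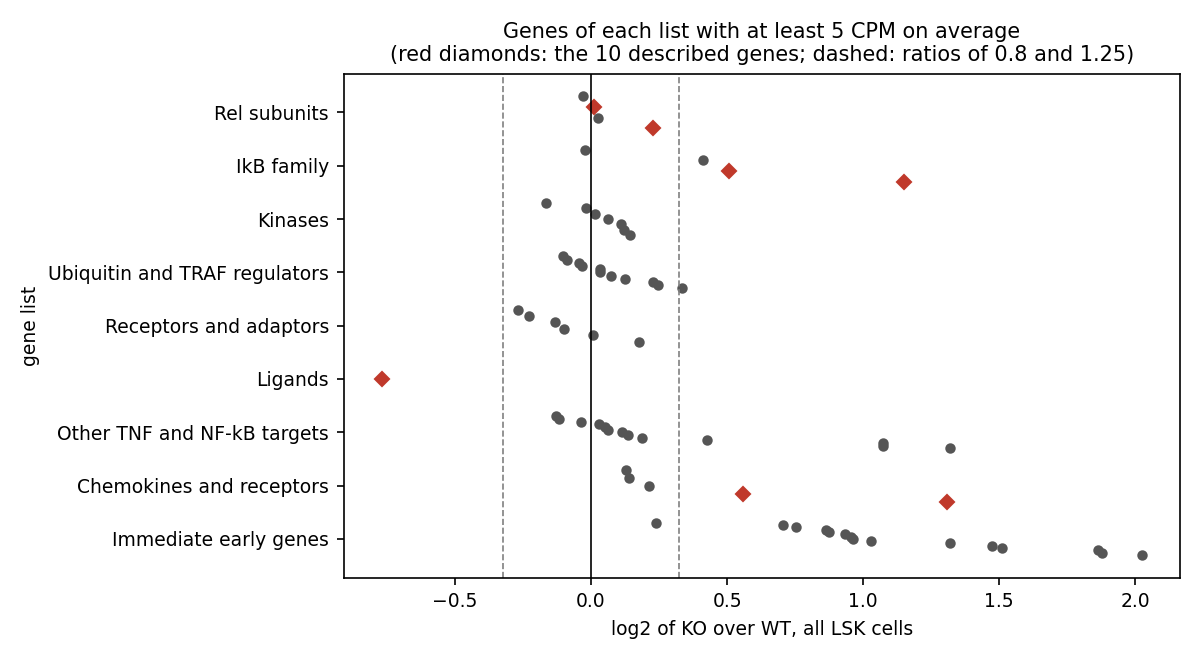
The log2 ratio of KO to WT over all LSK cells for the measured genes of 9 lists, with red diamonds for members of the 10 described genes, a solid line at 0 and dashed lines at 25% higher and 20% lower. Kinases, receptors and ubiquitin regulators lie around 0, the immediate early genes lie from 0.24 to 2.02, and Ltb lies alone at -0.77.

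Higher in KO alongside the feedback regulators were the immediate early genes, which cells transcribe within minutes of a stimulus. Of these 15 of 18 were measured, 14 were at least 25% higher in KO, 0 were that far lower, and the median log2 ratio came to 0.96. The nuclear receptor genes Nr4a1 and Nr4a2 were highest, at 2.02 (1.87 to 2.18) and 1.88 (1.72 to 2.04). All 18 immediate early genes together summed to 1691 CPM in KO cells and 901 CPM in WT cells, a log2 ratio of 0.91. By surface gate the ratio of this sum was 0.60 (0.56 to 0.64) in CD150+CD48- cells, 0.55 (0.51 to 0.58) in CD150-CD48- cells, 0.86 (0.83 to 0.89) in CD150+CD48+ cells and 1.05 (1.04 to 1.06) in CD150-CD48+ cells. Zfp36 and Atf3 stand on both this list and that of NF-κB targets. The part of the early genes in the differences of the 10 genes was not tested.

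Across 22 points (11 gates of each library) and 5291 genes with at least 20 CPM on average, the genes most like Nfkbiz by Pearson correlation of log levels were Gsk3b (0.93), Nipbl (0.91), Ddx5 (0.91), Copb1 (0.91) and Oga (0.90). The closest to Ccl3 were Hist1h2bc (0.89), Polr2a (0.82), Slc4a7 (0.80), Ect2 (0.77) and Il17ra (0.76). The closest to Ltb were Pglyrp2 (0.92), Irf2 (0.90), Eva1b (0.90), Pik3r1 (0.90) and Avl9 (0.89). The points share 2 libraries and overlapping cells, so these are descriptions.

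Other cell types and free RNA were measured beside these results. Monocyte and macrophage markers summed to 98.9 CPM in KO cells and 118 CPM in WT cells, with 10 of 10 markers detected in both, and neutrophil markers to 89.3 CPM and 95.1 CPM, with Retnlg at 0 in KO. T and NK markers summed to 39.4 CPM in KO and 29.0 CPM in WT with Ncr1 at 0 in both, and basophil and eosinophil markers to 22.7 CPM in KO and 8.73 CPM in WT. Cells with a UMI of a macrophage marker were 5.31% in KO and 3.41% in WT, and without them all 10 genes kept a ratio within counting error of that over all cells. In droplets with 10 to 100 UMIs, which hold free RNA, Ccl3 was at 36.5 CPM in KO (17 UMIs) and 7.87 CPM in WT (11 UMIs), and Ltb at 25.8 CPM in KO (12 UMIs) and 55.8 CPM in WT (78 UMIs). In droplets with 100 to 300 UMIs, Ccl3 was at 19.9 CPM in KO (112 UMIs) and 14.4 CPM in WT (115 UMIs), a log2 ratio of 0.47 (0.08 to 0.86), and Ltb at 22.2 CPM in KO (125 UMIs) and 45.1 CPM in WT (360 UMIs). For these genes the free RNA differed between the libraries in the same directions as the cells. Haemoglobin in the lymphoid gate gave upper bounds for its share of 29.7% in KO and 26.7% in WT, and the 1.73 CPM of Ccl3 in KO CD150+CD48- cells limits what free RNA could add there to that value. The subtraction at the upper bound took 10.8 CPM of Ccl3 and 28.1 CPM of Ccl4 from KO cells, more than the 1.84 CPM of Ccl3 and 5.63 CPM of Ccl4 that the KO erythroid gate held in all. For Ccl3 and Ccl4 the bound from haemoglobin and the level in the erythroid gate thus set different limits on free RNA.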

How the data were processed

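The deposited matrices hold unfiltered, un-normalized counts of UMIs for 32285 genes and 6 antibodies. The authors used Cell Ranger, version 4 per the file headers and 4.0.6 with build mm10 per the submitters' processing notes. A barcode was called a cell above a UMI minimum (9992 in KO, 8178 in WT), set to 10% of the 99th percentile among the 6000 largest barcodes and never under 1000, if it had 500 or more genes and no more than 10% mitochondrial UMIs. Within each library and gate the UMIs of all cells were added up and divided by 104358292 gene UMIs in KO and 141419013 in WT, or by those of the gate, to give CPM. Levels carry exact Poisson intervals, ratios exact conditional binomial intervals and shares exact Clopper-Pearson intervals at 95%, all for counting error only. The ratio and its interval were tested on simulated data. Surface gates were cut where a 2-component mixture of log tag counts (scikit-learn 1.9.0) crosses in each library. Lineage gates were the top 10% of cells for each of 4 common lineages, 2% for mast and basophil-eosinophil and 1% for dendritic markers, with both libraries weighted equally. No doublet caller was run. An alternative left out the 5% of cells with most UMIs and cells of more than 1 lineage gate. The named genes were the 10 genes, Bclaf1, up to 2 highest and 2 lowest genes of each list whose interval lay on 1 side of 0, and the 5 genes most like Ccl3, Nfkbiz and Ltb. Members and lists were chosen with earlier results of these data known. The antibody libraries are in the same matrices as the RNA. Python 3.11.15, NumPy 2.4.6 and SciPy 1.17.1 were used.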

Additional observations from a re-analysis of the deposited data

Results flagged for a closer look

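Ccl4 differed between the libraries in opposite directions in different cells. Its log2 ratio of KO to WT was 0.803 in CD150-CD48+ cells and -0.271 in CD150+CD48- cells, and 1.729 in the mast gate and -1.921 in the basophil-eosinophil gate. The last 2 values rest on 23 and 3 KO UMIs. In the erythroid gate, with 135 UMIs in KO and 122 in WT, the Ccl4 ratio was -0.521. It was above 0 in 4 of the 7 lineage gates. Nfkb1 had 0.086 in CD150-CD48+ cells and -0.169 in CD150+CD48+ cells, each with a counting interval clear of 0. With 1 library per genotype none of these differences between gates was tested.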

How the results depend on the processing

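The directions of Ccl3, Ccl4, Nfkbiz, Nfkbia, Tnfaip3, Ier3, Nfkb2, Relb and Ltb over all LSK cells were the same under all 11 alternatives. The log2 ratios ranged from 0.777 to 1.402 for Ccl3, 0.215 to 0.754 for Ccl4, 1.085 to 1.313 for Nfkbiz, 0.310 to 0.511 for Nfkbia, 1.146 to 1.446 for Tnfaip3, 0.884 to 1.104 for Ier3, 0.151 to 0.548 for Nfkb2, 0.224 to 0.454 for Relb and -0.837 to -0.483 for Ltb. Nfkb1 went from -0.058 to 0.170. The median of the 10 genes was 0.466 with median-of-ratios scaling and 0.442 with cells thinned to 8000 UMIs. Of the 10 genes, 7 were at least 25% higher in the main setting and 5 with cells thinned to 8000 UMIs. The count was 6 with median-of-ratios scaling, the mean over cells of CPM, weighting to WT gate shares, or without likely doublets. It was 8 without the top 1% of cells for the gene. With every gene that had a UMI in both libraries as background, 23.1% of genes were at least 25% higher and 12.2% at least 20% lower. Within gates, Ccl4 in CD150+CD48- cells turned to 0.159 with the top 20% for CD150 and bottom 20% for CD48, and Nfkbia in the mast gate to -3.1e-04 with smaller gates; the cause was not tested. A further 11 gate ratios whose counting interval held 0 changed sign, among them Tnfaip3 at -0.234 and Ltb at 0.766 in the dendritic gate with smaller gates. Leaving out the cells flagged for macrophage UMIs was chosen after seeing the data. No paired analysis was possible because each genotype is 1 library. Depth limits Tnfaip3, Relb and the rare gates most, where a gene often has under 20 UMIs.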
